A study of Homo sapiens with 8 samples.

Results

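The miR-17-92 cluster is a group of miRNAs cut from 1 primary transcript on chromosome 13. The 8 mature miRNAs described here, hsa-miR-17-5p, hsa-miR-17-3p, hsa-miR-18a-5p, hsa-miR-18a-3p, hsa-miR-19a-3p, hsa-miR-19b-3p, hsa-miR-20a-5p and hsa-miR-92a-3p (written without the prefix from here on), were chosen by name from the 1780 human miRNAs in the count table of the series. Small RNA was sequenced from DLD1 and HT29, established human colorectal adenocarcinoma cell lines, after 6 days of growth as 2D monolayers on plastic or as multicellular spheroids (MCS), which are cell aggregates formed in wells coated with 1% agarose so that cells cannot attach. The 4 groups were DLD1 2D (35000 cells seeded per flask), DLD1 MCS (7000 cells per well), HT29 2D (100000 cells per flask) and HT29 MCS (3500 cells per well), each with 2 replicate libraries. DLD1 cells were kept in RPMI-1640 and HT29 cells in DMEM, both with fetal bovine serum, and version 3 of the NEXTflex small RNA kit was used for DLD1 but version 2 for HT29, so that the cell line, the medium and the kit cannot be told apart. The cultures held 1 established cell line each, with no other cell type added.

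In cells, the nuclear enzyme Drosha cuts the hairpins out of the primary transcript and Dicer releases from each hairpin a short duplex of a 5p and a 3p arm, of which mostly 1 is kept in an Argonaute protein and guides it to mRNAs that pair with the seed, the bases 2 to 8 of the miRNA. The cluster is activated by MYC and E2F factors, lies in a part of chromosome 13 that colorectal tumours often gain, and is known for promoting proliferation and survival. Members that start from the same transcript can still reach unequal levels, because hairpins are cut with unequal efficiency and mature arms differ in stability.

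The mature sequences of RefSeq (assembly GRCh38.p14), which were found for all 8 members, are shown because their seeds define the families in which the members are described, with the seed in capitals. The miR-17 and miR-20a seed is shared, as is that of miR-19a and miR-19b, while miR-18a, miR-92a and the 3p arms of miR-17 and miR-18a have seeds of their own.
miR-17-5p: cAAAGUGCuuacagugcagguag
miR-20a-5p: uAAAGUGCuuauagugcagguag
miR-18a-5p: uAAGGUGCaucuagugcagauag
miR-19a-3p: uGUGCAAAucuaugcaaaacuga
miR-19b-3p: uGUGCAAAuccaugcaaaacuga
miR-92a-3p: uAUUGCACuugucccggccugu
miR-17-3p: aCUGCAGUgaaggcacuuguag
miR-18a-3p: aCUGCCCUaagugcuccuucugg

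Counted from 1 at the 5′ end, miR-20a-5p differs from miR-17-5p at 2 of 23 bases (C1U and C12U), and miR-19b-3p differs from miR-19a-3p at 1 of 23 (U11C). How reads that match more than 1 mature miRNA were counted is not given in the sources used here, so reads of such near-identical members could be shared between them. The cluster's paralog on chromosome X holds miR-106a-5p, which differs from miR-17-5p at 1 base (C1A) and is shown for that reason.
miR-106a-5p: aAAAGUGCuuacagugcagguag

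The 6 hairpins lie on the plus strand at chr13:92002859-92003645 (GRCh37), within 787 bases, in the order MIR17, MIR18A, MIR19A, MIR20A, MIR19B1 and MIR92A1. Their host gene MIR17HG is annotated at chr13:91999940-92049846 in GENCODE release 44 lifted to GRCh37, and each hairpin is exonic in 3 of its 16 transcripts, intronic in 8 and outside 5. MIR19B2 and MIR92A2 on chromosome X carry the same mature miR-19b-3p and miR-92a-3p, so counts of these 2 members can come from either chromosome. MIR17 and MIR18A are the hairpins of which both arms are members, and they are printed with the mature arms in capitals, the 5p arm first.
MIR17: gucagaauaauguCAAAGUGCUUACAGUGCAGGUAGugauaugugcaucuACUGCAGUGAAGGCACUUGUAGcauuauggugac
MIR18A: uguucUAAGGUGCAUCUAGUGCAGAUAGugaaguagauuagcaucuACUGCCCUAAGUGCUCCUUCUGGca

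The libraries held between 10495634 and 26211524 miRNA counts. Replicates 1 and 2 of HT29 stood apart from each other: miR-10a-5p, which is no member, took 47.3% and 10.6% of the counts in 2D and 38.5% and 6.57% in MCS, and the upper quartile factors by which libraries were scaled ran from 0.522 to 1.66, against 0.746 to 1.17 in DLD1. All 9 of the epithelial miRNAs listed for a check of the cell type reached 10 counts-per-million (CPM) in both libraries of every group, with summed levels per library of 99790 to 114306 CPM in DLD1 2D and 178756 to 181702 in DLD1 MCS, and of 73193 to 201580 in HT29 2D and 150892 to 280366 in HT29 MCS. Of 12 miRNAs typical of other cells (fibroblast, endothelium, blood, liver, muscle, neuron), 11 were in the table, between 2 and 3 reached that level in a group, and their sum was 110.1 to 125 CPM in DLD1 2D and 183 to 195 in DLD1 MCS, and 73.2 to 111 in HT29 2D and 210.0 to 279 in HT29 MCS. Both sums were thus higher in MCS than in 2D in DLD1, and the second also in HT29, and their part in the members' differences was not tested.

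As a share of all miRNA counts, the 8 members together made up 3.87% ± 0.220 in DLD1 2D and 3.37% ± 0.256 in DLD1 MCS (SD, n = 2). The HT29 shares were 4.53% ± 1.97 (2D) and 4.56% ± 2.39 (MCS; SD, n = 2). It was 3.14% (2D) and 2.87% (MCS) in replicate 1, and 5.92% (2D) and 6.24% (MCS) in replicate 2. In HT29, therefore, replicates of 1 culture differed more in this share than the cultures did.

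The member with the highest share of the cluster counts differed between the cell lines, for which the kit differed too. MiR-92a-3p, known to repress integrin alpha 5 and the pro-apoptotic BIM, took 76.5% and 81.2% of the cluster counts in the DLD1 2D libraries and 75.1% and 80.1% in the MCS libraries. In HT29 it took 23.8% and 14.2% in 2D and 30.8% and 12.8% in MCS. There the first place belonged to miR-20a-5p in each library, with 60.2% and 45.0% of the counts in 2D and 46.9% and 36.7% in MCS, against 9.30% to 12.6% in DLD1. MiR-17-5p, which shares the miR-20a-5p seed and with it targets such as E2F1 and the cell cycle inhibitor p21, held 6.88% ± 1.18 in DLD1 2D and 5.82% ± 0.855 in DLD1 MCS, and 19.7% ± 8.68 in HT29 2D and 22.7% ± 14.1 in HT29 MCS (SD, n = 2). The widest 95% Wilson interval of a share in a single library reached 0.176 percentage points to either side, which covers counting error only, so the spread between replicates and not the depth limited these shares.

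**Figure D1:**
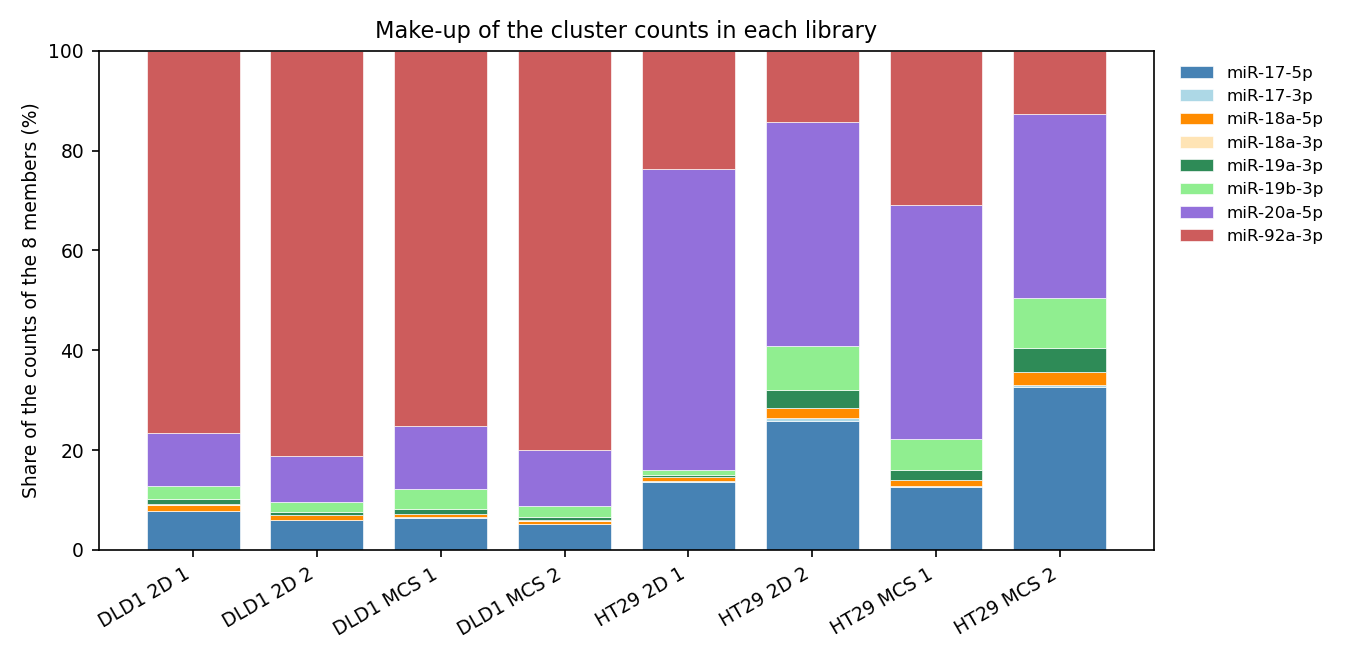
Stacked bars of the share (%) of each member in the summed counts of the 8 members, 1 bar for each of the 8 libraries, named by cell line, culture and replicate. MiR-92a-3p takes 75.1% to 81.2% of each DLD1 bar and 12.8% to 30.8% of each HT29 bar, in which miR-20a-5p is the first member with 36.7% to 60.2%.

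Levels are given as normalized CPM, for which the library total was first multiplied by an upper quartile factor. In such bulk libraries a level is relative to the other miRNAs, and fewer cells with a miRNA cannot be told apart from less of it per cell. All members are 22 or 23 bases long, so levels of different members are on the same footing in length. Whether the kits captured their sequences equally was not tested, so an order of different members is an order of counts. In DLD1 2D the order ran from miR-92a-3p through miR-20a-5p, miR-17-5p, miR-19b-3p, miR-18a-5p, miR-19a-3p and miR-18a-3p to miR-17-3p, and neighbours differed by more than the spread of the replicates except miR-18a-5p and miR-19a-3p. In DLD1 MCS miR-19a-3p stood before miR-18a-5p and miR-17-3p before miR-18a-3p, but neither pair differed beyond its spread. In HT29 MCS the order by mean was miR-20a-5p, miR-17-5p, miR-92a-3p, miR-19b-3p, miR-19a-3p, miR-18a-5p, miR-17-3p and miR-18a-3p, and in HT29 2D it differed only in that miR-92a-3p stood before miR-17-5p. Of these neighbours, miR-17-5p and miR-92a-3p, and miR-19a-3p and miR-18a-5p, did not differ beyond their spread in either culture, nor did miR-19b-3p and miR-19a-3p in 2D.

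**Figure D2:**
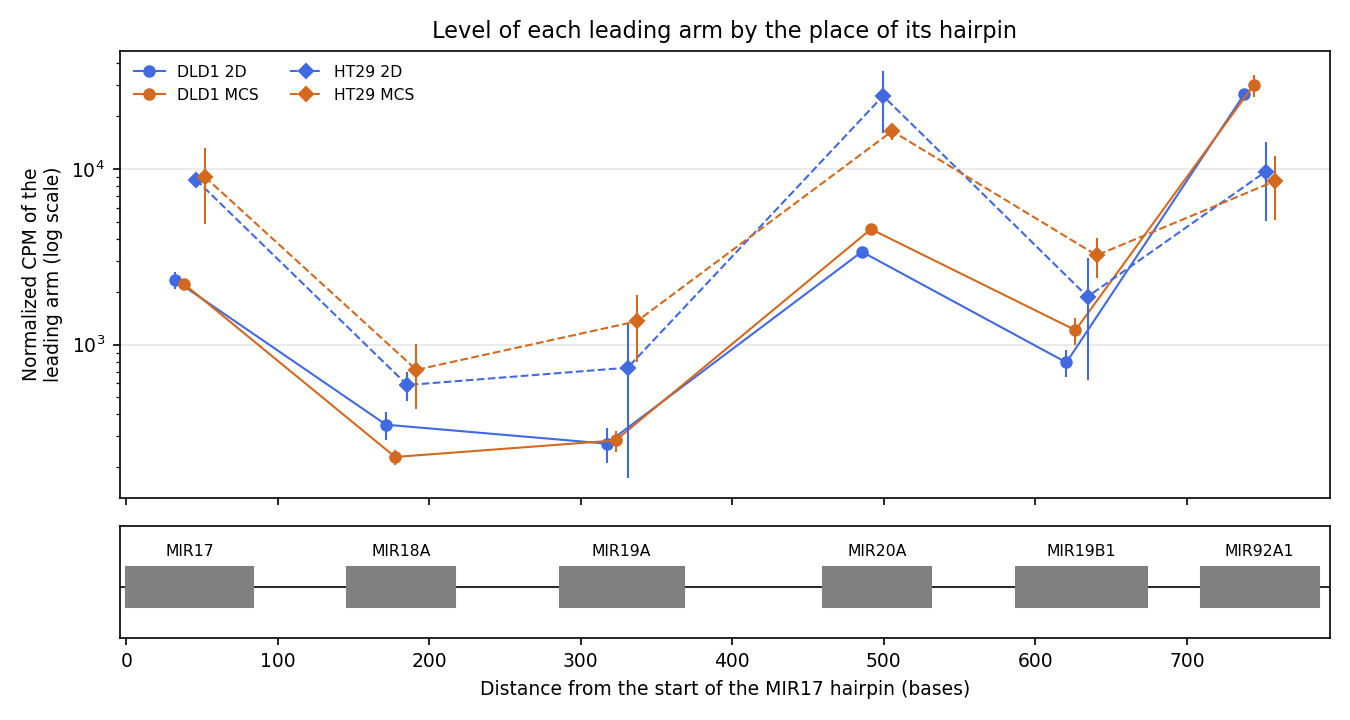
Above, the mean normalized CPM (log scale) of the leading arm of each hairpin in each group, placed at the hairpin's distance in bases from the start of MIR17, with vertical lines from the lower to the higher of the 2 libraries; below, the 6 hairpins to scale over 787 bases. Levels do not follow the order of the hairpins: miR-18a-5p and miR-19a-3p, cut from the 2 hairpins after MIR17, are below miR-17-5p and miR-20a-5p in all 4 groups, and lines only join points of a group.

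In DLD1 cells, 2 members passed the test of MCS against 2D in the main analysis, in opposite directions, and neither passed in every alternative setting. MiR-18a-5p fell and miR-19b-3p rose by at least 1.5-fold with an adjusted p-value under 0.05 by edgeR's quasi-likelihood test, so that 2 of 8 members were called, where 41.3% of the 346 miRNAs tested in DLD1 were called (29.8% as higher and 11.6% as lower in MCS). At an unadjusted p under 0.05 stood the same 2 members and 48.6% of all miRNAs. In this fit the spread was pooled over all miRNAs tested and not taken from each member's own replicates. The median log2 fold change of the members was 0.11, against 0.23 over all miRNAs tested. The libraries of MCS and 2D did not overlap for 5 of the members, 3 higher and 2 lower in MCS, where 70.8% of all miRNAs tested did not overlap (45.4% higher, 25.4% lower).

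MiR-18a-5p, whose release from the primary transcript is known to be aided by the RNA-binding protein hnRNPA1, had 413 and 285 normalized CPM in the DLD1 2D libraries and 207 and 251 in the MCS libraries. Both MCS libraries were below both 2D libraries. The log2 fold change was -0.61 (standard error 0.24, 95% interval -1.08 to -0.14), a 0.655-fold level, with a Benjamini-Hochberg adjusted p of 0.0270 by edgeR's quasi-likelihood test. The call was lost without replicate 1 of 2D (log2 fold change -0.45, edgeR adjusted p 0.207) and without replicate 1 of MCS (-0.64, 0.0803), the latter with no smaller a fold change. It was also lost with no filter on low counts (-0.61, edgeR adjusted p 0.0988) and with all 8 libraries in 1 fit (-0.63, 0.472). With same-numbered replicates as blocks the call was lost too (-0.59, edgeR adjusted p 0.0990). Its partner arm miR-18a-3p, the less abundant product of the hairpin, had 38.9 and 34.5 normalized CPM in 2D and 29.8 and 29.4 in MCS, also with both MCS libraries lower, but its log2 fold change of -0.31 (standard error 0.32) did not pass the test.

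MiR-19b-3p, which with miR-19a-3p forms the miR-19 family, known as a main oncogenic part of the cluster, had 928 and 652 normalized CPM in DLD1 2D and 1421 and 993 in DLD1 MCS. Both MCS libraries were above both 2D libraries, although replicate 2 of MCS was above replicate 1 of 2D by little. The log2 fold change was 0.61 (standard error 0.23, 95% interval 0.16 to 1.06), a 1.53-fold level, and edgeR's adjusted p was 0.0208. This call was lost with each of the other 5 scalings of the libraries (TMM factors, RLE factors, library totals with or without miR-10a-5p, and the upper quartile of tested miRNAs), at an edgeR adjusted p of 0.137 to 0.656, and without replicate 2 of 2D (log2 fold change 0.26, adjusted p 0.574) or replicate 1 of MCS (0.17, 0.557). It was also lost with no filter on low counts (0.61, edgeR adjusted p 0.1000) and with all 8 libraries in 1 fit (0.61, 0.653). MiR-19a-3p, 1 base apart from it, had 335 and 210 normalized CPM in 2D and 324 and 245 in MCS. Here the cultures overlapped, and the log2 fold change was 0.06 (standard error 0.24) and was below 0 with the other 5 scalings.

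Among the miR-17 seed family, miR-20a-5p had 3545 and 3207 normalized CPM in DLD1 2D and 4330 and 4758 in MCS, and miR-17-5p had 2584 and 2084 in 2D and 2205 and 2233 in MCS. For miR-20a-5p both MCS libraries were higher, but its log2 fold change of 0.43 (standard error 0.24) did not pass the test, with an edgeR adjusted p of 0.147, and was below 0 when the upper quartile was taken over tested miRNAs only. The log2 fold change of miR-17-5p was -0.07 (standard error 0.23) with overlapping cultures. MiR-17-3p, the less abundant arm of the same hairpin, had 20.6 and 19.5 normalized CPM in 2D and 32.5 and 27.1 in MCS, a log2 fold change of 0.57 (standard error 0.33) that did not pass the test, with an edgeR adjusted p of 0.153.

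MiR-92a-3p, the member with the highest counts in DLD1, had 25617 and 27982 normalized CPM in 2D and 25762 and 34262 in MCS. The cultures overlapped, and the log2 fold change of 0.16 (standard error 0.30) had an edgeR adjusted p of 0.661 and was below 0 with 4 of the other 5 scalings.

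How much a fold change in DLD1 departs from 0 depended on the scaling: with the other 5 scalings all miRNAs shifted down by a median of 0.12 to 0.46 on the log2 scale. With the upper quartile factors 72.0% of the called miRNAs were higher in MCS, and with the others 34.5% to 64.0%. Relative to the median of all miRNAs tested under the same scaling, miR-18a-5p was at -0.86 to -0.83, miR-18a-3p at -0.54 to -0.52, miR-17-5p at -0.30 to -0.29, miR-19a-3p at -0.17 to -0.11, miR-92a-3p at -0.09 to -0.06, miR-20a-5p at 0.20 to 0.21, miR-17-3p at 0.34 to 0.38 and miR-19b-3p at 0.38 to 0.44 over the 6 scalings. Subtracting the median removes a shift common to all miRNAs by construction, so these values show where the members lay among all miRNAs and not that a call was stable.

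**Figure D3:**
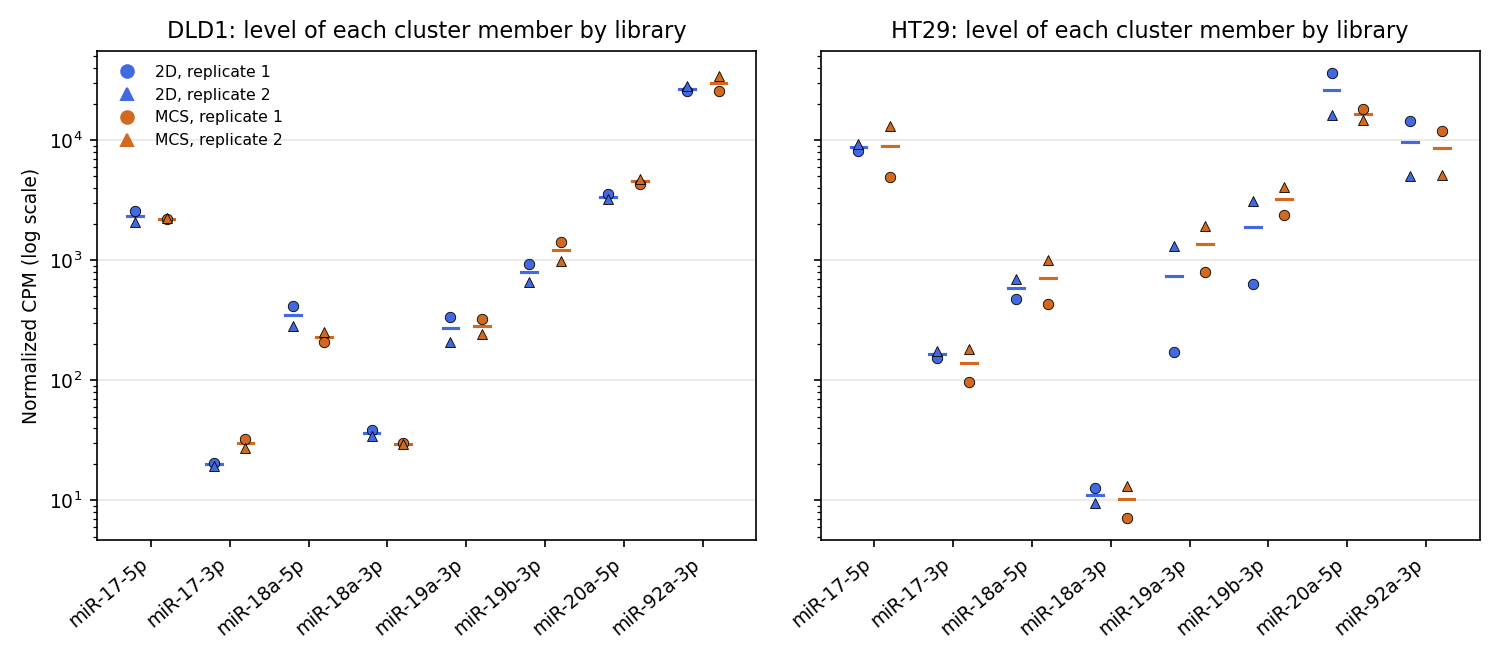
Normalized CPM (log scale) of each member in each library of DLD1 and HT29; circles are replicate 1, triangles replicate 2, and bars the mean of a culture. In DLD1 the replicates mostly lie closer together than in HT29. MiR-18a-5p (413 and 285 against 207 and 251) and miR-19b-3p (928 and 652 against 1421 and 993) are among the 5 members that separate by culture in DLD1. For both, the gap between the cultures is smaller than the gaps between replicates. In HT29 many replicates lie far apart, such as those of miR-19a-3p in 2D (173 and 1302), but not all, such as those of miR-17-5p in 2D (8171 and 9228).

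In HT29 cells none of the 8 members was called in the main analysis, where 0% of the 301 miRNAs tested were called by edgeR's quasi-likelihood test. At an unadjusted p under 0.05 stood 0 members and 12 of all miRNAs (3.99%). EdgeR's exact test called 5 miRNAs (1.66%) and DESeq2 called 12 (3.99%), with no member among them. With same-numbered replicates as blocks, 47 of the 301 were called, among them miR-19a-3p (log2 fold change 1.37) and miR-19b-3p (1.15). These numbers are shared by label only, so the block is given as an alternative. The cultures overlapped for each of the 8 members, while 28.6% of all miRNAs tested did not overlap. The members' median log2 fold change was -0.03, against 0.03 over all miRNAs. Their edgeR adjusted p-values were all 0.977.

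The miR-19 family had the highest fold changes and the widest spread in HT29. MiR-19a-3p had 173 and 1302 normalized CPM in the 2D libraries and 796 and 1916 in the MCS libraries. MiR-19b-3p had 629 and 3116 in 2D and 2384 and 4064 in MCS. In each case replicate 1 of 2D stood below the 3 other libraries, and replicate 2 of 2D was 7.51-fold above it for miR-19a-3p and 4.95-fold for miR-19b-3p. The size of this gap depended on the scaling, and with library totals alone it was 23.9-fold and 15.7-fold. The log2 fold changes were 0.88 (standard error 1.03) and 0.78 (standard error 0.85), and they ran from 0.05 and 0.04 without replicate 1 of 2D to 2.88 and 2.27 without replicate 2 of 2D. The 95% interval of the fold change of miR-19a-3p ran from 0.287 to 11.8.

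In normalized CPM, miR-20a-5p and miR-92a-3p differed between the replicates in the other direction. MiR-20a-5p had 36139 and 16053 normalized CPM in HT29 2D and 18153 and 14729.5 in MCS, and miR-92a-3p had 14268 and 5061 in 2D and 11926 and 5122 in MCS. Both were higher in replicate 1 than in replicate 2 of both cultures, and for miR-92a-3p the replicates differed 2.82-fold in 2D and 2.33-fold in MCS. With library totals alone, replicate 2 over replicate 1 was 1.41 (2D) and 1.70 (MCS) for miR-20a-5p, and 1.13 and 0.901 for miR-92a-3p. The direction thus turned with the scaling for miR-20a-5p in both cultures and for miR-92a-3p in 2D. Their log2 fold changes of -0.67 (standard error 0.63) and -0.18 (standard error 0.75) did not pass the test, and that of miR-92a-3p was above 0 with library totals alone. Without replicate 1 of 2D they were 0.028 and 0.75, and without replicate 2 of MCS that of miR-92a-3p was 0.28.

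MiR-17-5p had 8171 and 9228 normalized CPM in HT29 2D and 4892 and 13109.8 in MCS, and its partner miR-17-3p had 154 and 177 in 2D and 96.4 and 184 in MCS. MiR-18a-5p had 474 and 701 in 2D and 429 and 1006 in MCS, and miR-18a-3p, near the filter of 10 CPM, had 12.6 and 9.61 in 2D and 7.16 and 13.3 in MCS. For these 4 members the 2D libraries lay between the MCS libraries, with replicate 1 of MCS lowest and replicate 2 highest, and the log2 fold changes lay between -0.24 and 0.29, none of them past the test. The sign was not the same under each scaling for miR-17-5p, miR-18a-5p and miR-18a-3p.

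The spread between replicates was larger in HT29 than in DLD1, for the members and for all miRNAs. The median absolute log2 difference between replicates of 2D was 0.87 for the members and 0.64 for all miRNAs tested in HT29, and 0.24 and 0.21 in DLD1. The biological coefficient of variation of edgeR's fit, common to all miRNAs, was 0.193 in DLD1 and 0.521 in HT29. In HT29 2D the members' log2 differences in normalized CPM of replicate 2 from replicate 1 ran from -1.50 for miR-92a-3p to 2.91 for miR-19a-3p. The share of miR-10a-5p differed between the same replicates, as given above, and its part in the spread of the members was not tested.

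**Figure D4:**
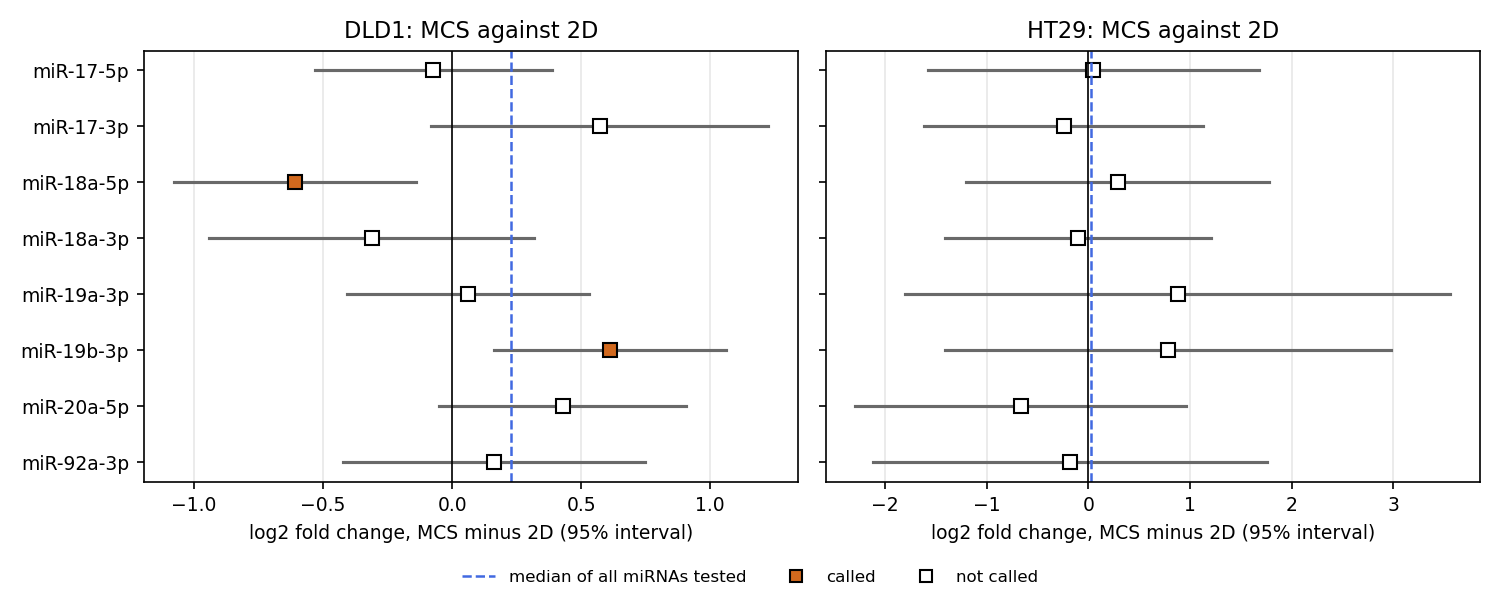
Log2 fold change of MCS against 2D for each member in DLD1 and HT29, with 95% intervals from edgeR's quasi-likelihood fit; filled squares passed the call, open squares did not, and the dashed line is the median of all miRNAs tested (0.23 and 0.03). MiR-18a-5p at -0.61 and miR-19b-3p at 0.61 are the filled squares, both in DLD1, and the HT29 intervals all include 0; the axes of the cell lines differ in range.

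An interaction term, fitted to all 8 libraries over 250 miRNAs, tested whether DLD1 and HT29 responded differently to MCS. None of the members passed, and 0% of all miRNAs passed by edgeR's quasi-likelihood test, with 9.2% at an unadjusted p under 0.05 and 0 members among these. DESeq2 passed 21 miRNAs (8.4%) and no member. The largest differences of HT29 from DLD1 were -1.12 (standard error 0.59) for miR-20a-5p, 0.86 (standard error 0.63) for miR-18a-5p and -0.85 (standard error 0.54) for miR-17-3p on the log2 scale, with edgeR adjusted p-values of 0.674, 0.749 and 0.708. That of miR-20a-5p was -0.39 without replicate 1 of HT29 2D, that of miR-18a-5p 0.16 without replicate 2 of HT29 MCS, and that of miR-17-3p -0.41 without replicate 1 of HT29 MCS. Their order also depended on the scaling. With library totals alone the values were -0.39 for miR-20a-5p, 1.40 for miR-18a-5p and -0.31 for miR-17-3p, with 0.92 for miR-19a-3p. In the main analysis the median difference over all 250 miRNAs was -0.23. Relative to that median, miR-18a-5p was at 1.09, miR-19a-3p at 0.99, miR-20a-5p at -0.88 and miR-17-3p at -0.62. A call in DLD1 and its lack in HT29 therefore does not show a difference between the cell lines.

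Ratios of members within a library do not depend on the scaling, and they were compared for the arms of miR-17 and miR-18a and for the other leading arms against miR-17-5p. With 2 libraries against 2, the exact 2-sided permutation test cannot go below p = 0.3333 within a cell line, and not below 0.05556 with both cell lines, so that no ratio could pass. Over the 7 ratios none did.

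In DLD1 there were 16.0 and 13.7 counts of miR-18a-5p per 100 of miR-17-5p in 2D, and 9.37 and 11.2 in MCS. For miR-19b-3p there were 35.9 and 31.3 per 100 in 2D and 64.4 and 44.5 in MCS, and for miR-20a-5p 137 and 154 in 2D and 196 and 213 in MCS. These 3 ratios separated by culture, with log2 differences of -0.53, 0.68 and 0.49 and an exact permutation p of 0.3333 each (adjusted 0.5833). So did the arms of miR-17, with 126 and 107 counts of miR-17-5p per count of miR-17-3p in 2D and 67.9 and 82.3 in MCS, a log2 difference of -0.63 with the same exact p. The arms of miR-18a (10.6 and 8.25 counts of the 5p arm per count of the 3p arm in 2D, 6.93 and 8.54 in MCS) and the ratios of miR-19a-3p and miR-92a-3p to miR-17-5p overlapped between the cultures.

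In HT29 the ratio of miR-20a-5p to miR-17-5p separated by replicate and not by culture, with 442 and 174 counts per 100 in 2D and 371 and 112 in MCS. The same held for miR-92a-3p, with 175 and 54.8 per 100 in 2D and 244 and 39.1 in MCS. For miR-19b-3p replicate 1 of 2D had 7.70 per 100 of miR-17-5p and the 3 other libraries between 31.0 and 48.7. The ratio of miR-19a-3p to miR-17-5p, with 2.12 and 14.1 per 100 in 2D and 16.3 and 14.6 in MCS, was higher in both MCS libraries, but 3 of the 4 libraries were close to each other. MiR-18a-5p was at 5.81 and 7.60 per 100 of miR-17-5p in 2D and at 8.77 and 7.67 in MCS, a log2 difference of 0.30 with an exact permutation p of 0.3333 (adjusted 0.9334). The arms of miR-18a stood at 37.7 and 73.0 counts of 5p per count of 3p in 2D and 60.0 and 75.7 in MCS, above the 6.93 to 10.6 of DLD1, where the kit differed too.

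**Figure D5:**
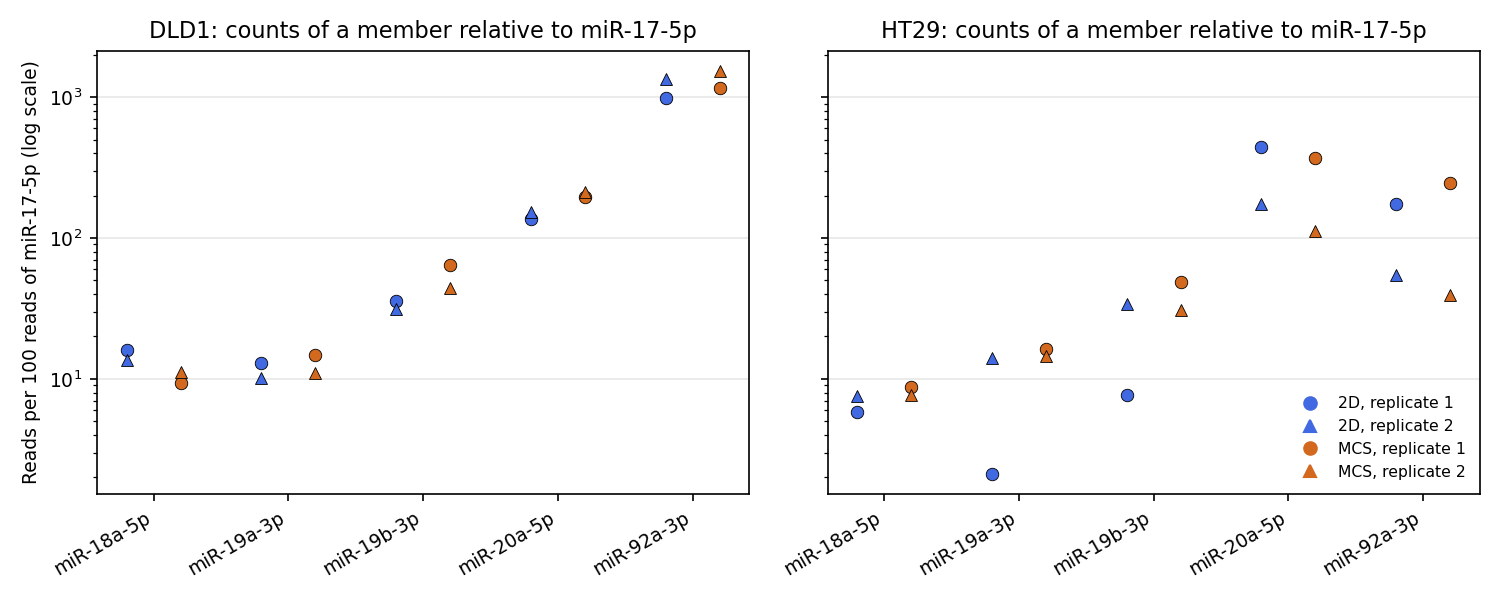
Counts of 5 leading arms per 100 counts of miR-17-5p (log scale) in each library; circles are replicate 1 and triangles replicate 2. In DLD1 miR-18a-5p is lower (9.37 and 11.2 against 16.0 and 13.7) and miR-19b-3p and miR-20a-5p are higher in MCS, while in HT29 miR-20a-5p and miR-92a-3p separate by replicate.

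Of the 4 other arms of the hairpins, miR-20a-3p and miR-92a-1-5p entered the DLD1 test. MiR-20a-3p had 75.4 and 48.9 normalized CPM in DLD1 2D and 48.7 and 54.0 in MCS, and miR-92a-1-5p, which MIR92A2 does not make, had 110.4 and 139.6 in 2D and 104 and 115 in MCS. Neither was called (log2 fold changes -0.27 and -0.20), and both overlapped between the cultures. In HT29 miR-20a-3p had 6.38 and 16.5 normalized CPM in 2D and 8.16 and 26.5 in MCS and was not called, while miR-92a-1-5p stayed between 4.39 and 6.02. MiR-19b-1-5p, made by MIR19B1 on chromosome 13 alone, had 0.912 and 10.8 in HT29 2D and 1.76 and 11.9 in MCS, with higher values in replicate 2 of both cultures, and in DLD1 it was at 1.78 to 4.16. MiR-19a-5p had at most 18 counts in any library.

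The paralog on chromosome X was little seen. Of its 10 arms, 4 were in the table, and miR-106a-5p alone was tested, with a mean of 19.1 normalized CPM in DLD1 2D and 19.6 in DLD1 MCS, and 10.2 and 12.0 in HT29, against 2334 and 2219 and 8699.5 and 9001 of miR-17-5p. MiR-18b-5p, miR-20b-5p and miR-363-3p, which are made by that locus, reached at most 1.51, 6.75 and 0.547 normalized CPM in any library. The 6 arms of the miR-106b-25 paralog on chromosome 7 were all tested, and none was called in either cell line. Of all miRNAs tested, 41.3% were called in DLD1 and 0% in HT29. The cultures did not overlap for 5 of these arms in DLD1 (70.8% of all miRNAs) and for 1 in HT29 (28.6%). Their median log2 fold change was 0.17 in DLD1 and -0.32 in HT29, where the medians of all miRNAs were 0.23 and 0.03.

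Of the other loci with the miR-92a seed, miR-32-5p was called in DLD1, with 36.1 and 20.7 normalized CPM in 2D and 59.6 and 63.9 in MCS, which gave 1.12 (standard error 0.31) as the log2 fold change and 0.00116 as edgeR's adjusted p. MiR-92b-3p was not (727 and 546 normalized CPM in the means of 2D and MCS, log2 fold change -0.41). Neither was called in HT29, where miR-32-5p had 43.6 and 279.7 in 2D and 67.2 and 371 in MCS. There, as for miR-19a-3p and miR-19b-3p, replicate 2 was above replicate 1 in both cultures.

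The mean of the 6 leading members, on log2 normalized CPM centred on each cell line, was most like miR-135b-5p (Pearson r = 0.966), miR-326 (0.950), miR-374c-3p (0.925), miR-20a-3p (0.922) and miR-141-5p (0.917) over the 8 libraries, and 10 of the 242 other miRNAs had an r over 0.9. The points share their libraries and scaling. Of the members themselves, miR-19a-3p and miR-19b-3p had an r of 0.930 and 0.901 with this mean, of which they are a part, whereas miR-20a-5p and miR-92a-3p had -0.675 and -0.813. Over the 8 libraries the mean thus followed the miR-19 family, whose values vary most between the HT29 libraries, and not miR-20a-5p or miR-92a-3p. Within HT29 alone the r of miR-20a-5p and miR-92a-3p was -0.906 and -0.898. Within DLD1 alone it was 0.575 and -0.099, and that of miR-19a-3p and miR-19b-3p was 0.857 and 0.731.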

How the data were processed

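Cells were grown and libraries prepared as described with the experiment. The authors removed adapters and random end bases with Cutadapt, dropped reads under 15 bases or quality 25, aligned reads to GRCh37 with Bowtie2 and then to miRBase mature miRNAs, and deposited raw counts per mature miRNA, not pooled or normalized. Samples were grouped by the labels. The members and lists were chosen with earlier results of these data known. The HT29 tables also list 15 entries naming no miRNA (0.00988% of replicate 2 of 2D), which were left out.

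Counts were analysed with edgeR 4.0.16 in R 4.3.3. Library scaling used upper quartile factors from every miRNA with a count in the cell line, and miRNAs averaging 10 CPM or more were tested by the quasi-likelihood test with Benjamini-Hochberg adjustment over all of them. A call needed a 1.5-fold change and an adjusted p under 0.05. Normalized CPM use the library total times its factor. Replicates are labelled biological, 2 per group. The p-values measure the spread between these libraries, which edgeR shares over miRNAs. In the DLD1 fit the prior degrees of freedom were infinite, so the spread was pooled over all miRNAs tested and not taken from each member. Named miRNAs are the 8 members, the listed relatives with at least 10 CPM (those under it by their highest level) and the 5 nearest in pattern. Alternatives were other scalings (TMM, RLE, library totals, totals without miR-10a-5p, upper quartile of tested miRNAs), the exact test, DESeq2 1.42.0, other filters, a replicate block, 1 fit over all libraries, and each library left out. The fits were run on simulated data with 4-fold changes. A minimum recovery was required of the DLD1 fit only, and recovery in HT29 and in the interaction is not reported here. Figures used Python 3.11.15 and matplotlib 3.10.9.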

Additional observations from a re-analysis of the deposited data

Results flagged for a closer look

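The ratio of miR-18a-5p to miR-17-5p moved in opposite directions in the cell lines, which is why it is listed here: both DLD1 MCS libraries were below both DLD1 2D libraries (9.37 and 11.2 against 16.0 and 13.7 counts per 100), and both HT29 MCS libraries were above both HT29 2D libraries (8.77 and 7.67 against 5.81 and 7.60). The log2 difference of MCS from 2D was -0.53 in DLD1 and 0.30 in HT29, so that HT29 minus DLD1 came to 0.83. With the cultures permuted within each cell line, the exact 2-sided permutation test gave p = 0.05556, the smallest it can give, and 0.3889 after adjustment over the 7 ratios. The ratio was listed because its cultures separate fully in opposite directions, and any such ratio gives this smallest p. The p is therefore fixed by the listing and is no further evidence of a difference between the cell lines. In HT29 the 2 libraries of replicate 2 were 0.01 apart on the log2 scale, and the 2 of replicate 1 were 0.60 apart. The interaction of miR-18a-5p itself did not pass (0.86, standard error 0.63, edgeR adjusted p 0.749), and the cell line and the kit cannot be told apart. Groups of 2 libraries were not searched for single outlying libraries.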

How the results depend on the processing

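In DLD1 the count of members called was 2 in the main analysis, 1 with TMM, with RLE, with library totals alone, with an upper quartile of tested miRNAs only, with library totals without miR-10a-5p, with DESeq2 and with the replicate block, 0 with no filter and in 1 fit over all 8 libraries, and 0 to 2 with each library left out. Of all miRNAs tested, 38.7% to 41.3% were called with these scalings, DESeq2 and the block, but 11.5% (171 of 1492) with no filter, 8.67% in 1 fit and 26.7% to 35.4% with a library left out. MiR-18a-5p was below 0 under all 11 alternatives (-1.08 to -0.59) and was called in 8, and miR-19b-3p was above 0 under all 11 (0.19 to 0.61) and was called in 3, with edgeR or DESeq2 adjusted p-values of 1.02e-04 to 0.472 and 0.0167 to 0.656. Over all miRNAs tested in DLD1, 143 were called in the main analysis, 30 in 1 fit over all libraries, and 92 without replicate 2 of 2D.

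Replicate numbers are shared by label only and were not used to pair libraries. Deviations of same-numbered libraries correlated at 0.338 in DLD1 and 0.788 in HT29, over 2 pairs each. With the replicate block HT29 had 2 members called, miR-19a-3p at 1.37 and miR-19b-3p at 1.15 (edgeR adjusted p 0.00144 and 0.00956, and up to 0.999 under the other alternatives), where 15.6% of all miRNAs (47 of 301) were called instead of 0, and in DLD1 miR-18a-5p was lost (0.0990). The interaction called 40 of 250 miRNAs (16%) with the block, 21 of 1780 (1.18%) with no filter and 21 of 250 (8.4%) with DESeq2, and no member.

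Signs turned only where a member was not called. In DLD1 miR-19a-3p was at -0.11 with TMM, -0.033 with RLE, -0.25 with library totals, -0.37 with an upper quartile of tested miRNAs only, -0.20 without miR-10a-5p and -0.14 with DESeq2, and miR-92a-3p at -0.050, -0.23, -0.30, -0.17 and -0.085 with TMM, library totals, an upper quartile of tested miRNAs only, without miR-10a-5p and with DESeq2. MiR-20a-5p was at -0.026 with an upper quartile of tested miRNAs only. In HT29 miR-17-5p was at -0.0017 with TMM, -0.26 with that upper quartile, -0.061 with DESeq2, -0.12 with the replicate block and -0.0065 in 1 fit, miR-18a-5p at -0.018 with that upper quartile, miR-18a-3p at 0.20 with library totals and 0.023 without miR-10a-5p, and miR-92a-3p at 0.084 with library totals. The interaction turned to -0.078 for miR-17-5p with the replicate block, to -0.053 for miR-19b-3p with TMM, and for miR-92a-3p to 0.31 with library totals, 0.21 with that upper quartile and 0.13 without miR-10a-5p. The cause was not tested.

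With each library left out in turn, log2 fold changes ran in DLD1 from -0.35 to 0.32 for miR-19a-3p and from -0.12 to 0.18 for miR-92a-3p, and in HT29 from -0.85 to 0.57 for miR-17-5p, -0.81 to 0.13 for miR-17-3p, -0.48 to 0.75 for miR-18a-5p, -0.38 to 0.24 for miR-18a-3p, -1.22 to 0.028 for miR-20a-5p and -0.95 to 0.75 for miR-92a-3p. The interaction ran from -0.75 to 0.68 for miR-17-5p, -0.031 to 2.89 for miR-19a-3p, -0.59 to 1.72 for miR-19b-3p, -1.03 to 0.62 for miR-92a-3p, -1.59 to -0.39 for miR-20a-5p, 0.16 to 1.40 for miR-18a-5p and -1.35 to -0.41 for miR-17-3p. Log2 differences of ratios ran in DLD1 from -0.059 to 0.36 for miR-19a-3p and -0.0039 to 0.43 for miR-92a-3p to miR-17-5p, and in HT29 from -1.30 to 0.42 for miR-20a-5p and -1.32 to 1.32 for miR-92a-3p to miR-17-5p, -0.050 to 0.44 for miR-17-5p to miR-17-3p and -0.12 to 0.84 for the arms of miR-18a. A culture left with 1 library was taken to vary like the other.

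Without miR-19b-3p and miR-92a-3p, which chromosome X can also make, miR-20a-5p held 53.0% of the remaining cluster counts in DLD1 2D, 61.9% in DLD1 MCS, 69.3% in HT29 2D and 61.0% in HT29 MCS, and miR-17-5p held 36.5% in DLD1 2D and 30.3% in DLD1 MCS. Precision was limited by 2 libraries per culture. Among the members, counts in HT29 were lowest for miR-18a-3p, with 57 to 418 per library. In DLD1 they were lowest for miR-17-3p, with 361 to 608, and miR-18a-3p, with 448 to 1027. Counting error weighs more at such counts, but its part in the spread between replicates was not tested.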
